A study of Mus musculus with 26 samples.

Results

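Type I interferon response genes were followed in T cells purified by flow cytometry from Peyer's patches, the gut's lymphoid follicles, in mice. The set held 32 genes out of 25814 in the deposited tables, chosen by name as sensors, factors and targets of the pathway, and all 32 were found. Levels are total exon reads as CPM, the reads of a gene per 1000000 exon reads of its library after scaling. CD4+ T cells of C57Bl/6 mice on an elemental diet (n = 6), which supplies free amino acids in place of protein, were set against CD4+ T cells of C57Bl/6 mice on a conventional diet (n = 6). The other pair was CD44+ T cells (n = 7) against CD44- T cells (n = 7), both of C57Bl/6 mice on the conventional diet. CD44, a receptor for hyaluronan, is raised on T cells after they meet antigen. No age, no CD4 gate for the CD44 sorts and no statement that replicates were separate animals is in the labels, so p-values measure the spread between these samples, which may be technical. CD4+ libraries started from 22 ng of RNA and CD44 libraries from 1 ng with another kit, so kit and cell population cannot be told apart between the pairs, and no level or fold change was compared between them.

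Type I interferons, the alpha and beta interferons, are released by cells that detect viral or other foreign nucleic acid. They bind a receptor made of IFNAR1 and IFNAR2, whose kinases JAK1 and TYK2 activate transcription factors. STAT2 and IRF9 are parts of the complex ISGF3, which binds interferon-stimulated response elements (ISREs) in promoters and switches on genes that block viral replication, sense viral RNA and damp the signal. Many of these genes keep a low level of expression in resting lymphocytes, and interferon gamma induces part of them.

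The response element is shown because it is the sequence that ISGF3 recognises. Its core, GAAA followed by any 2 bases and GAAA again, was searched on both strands, overlaps included, in RefSeq promoter windows (GRCm38.p6) of 250 bases before to 50 bases after each gene's start. A window was found for 23 members. The core was in the window of 11 of these 23 (47.8%), against 1079 of 27025 genes (3.99%). The stretches below lie before the start, read 5′ to 3′ on the gene's strand, with the cores in capitals. Capitals with TTTC at each end are the same core on the opposite strand, and cores that overlap run on as a single block.
Isg15: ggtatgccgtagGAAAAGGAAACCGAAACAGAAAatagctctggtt
Ifit3: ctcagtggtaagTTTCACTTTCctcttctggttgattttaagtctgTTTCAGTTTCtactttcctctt
Ifit1: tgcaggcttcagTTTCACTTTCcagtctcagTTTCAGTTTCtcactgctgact
Bst2: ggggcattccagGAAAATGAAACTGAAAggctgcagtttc
Oas1a: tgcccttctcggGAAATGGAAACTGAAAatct
The Isg15 stretch is chr4:156200863-156200908 on the minus strand and held 3 overlapping cores. That of Ifit3 is chr19:34583361-34583428 and that of Ifit1 is chr19:34640773-34640825, both on the plus strand, each with 2 separate cores. The Bst2 stretch is chr8:71537575-71537614 and that of Oas1a is chr5:120907526-120907557, both on the minus strand, each with 2 overlapping cores. Ifih1, Ddx58, Oas3, Trim30a, Stat2 and Rsad2 also held the core. Of the 8 genes with a window that rose on the elemental diet (below), 2 held it, Ifit3 and Bst2, as did 9 of the other 15. Windows for Dhx58, Zbp1, Usp18, Oas2, Mx1, Parp9, Parp14, Rtp4 and Ifi27l2a were not used here.

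Depth was 17331588 to 22430541 exon reads in elemental libraries and 16401589 to 25415205 in conventional ones. It was 7180390 to 9991782 in CD44+ and 7933600 to 13378353 in CD44- libraries. T cell core transcripts summed to 4320 to 4936 CPM in elemental and 4488 to 5334 CPM in conventional libraries. The sort marker Cd4 measured 182 to 284 CPM in elemental and 224 to 449 CPM in conventional libraries. Cd44 measured 71.7 to 121 CPM in elemental and 113 to 153 CPM in conventional libraries. Conventional replicate 6 stood apart from the other conventional libraries. Genes with over 6000 bases of exon lay a median of 0.30 log2 units below their mean in that library, while in the other 5 the median ran from -0.00347 to 0.51. In sorted bulk samples, a change in the share of cells of a type and a change in RNA per cell cannot be told apart.

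On the elemental diet, sorted CD4+ libraries had higher levels of a group of interferon response genes led by Ifi44, Ifit3, Oasl1 and Usp18. The smallest adjusted p-values were those of Irf7 and Bst2. Of the 32 genes, 30 had enough reads to test, and each of those had at least 19 reads in every CD4+ library. With edgeR's quasi-likelihood test and a Benjamini-Hochberg adjusted p under 0.05 over all genes, 10 rose and 1 fell. Across all 11938 genes tested, 17.4% were called, 9.68% as higher and 7.75% as lower with the elemental diet. An unadjusted p under 0.05 was found for 15 of the 30 and for 33.8% of all genes. The median log2 fold change of the 30 genes was 0.41, against -0.01 over all genes, and 21 were positive and 9 negative. Members were chosen with earlier results of these data known, so their contrast with all genes is a description. The elemental values lay above every conventional value for 4 members, Irf7, Oasl1, Bst2 and Ifi44, and below every conventional value for 0, against 4.82% and 2.35% of all genes. An alternative fit in which the 4 groups shared a spread called 0 of the 30, and one against a minimum fold of 1.5 called 1, Ifi44.

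**Figure D1:**
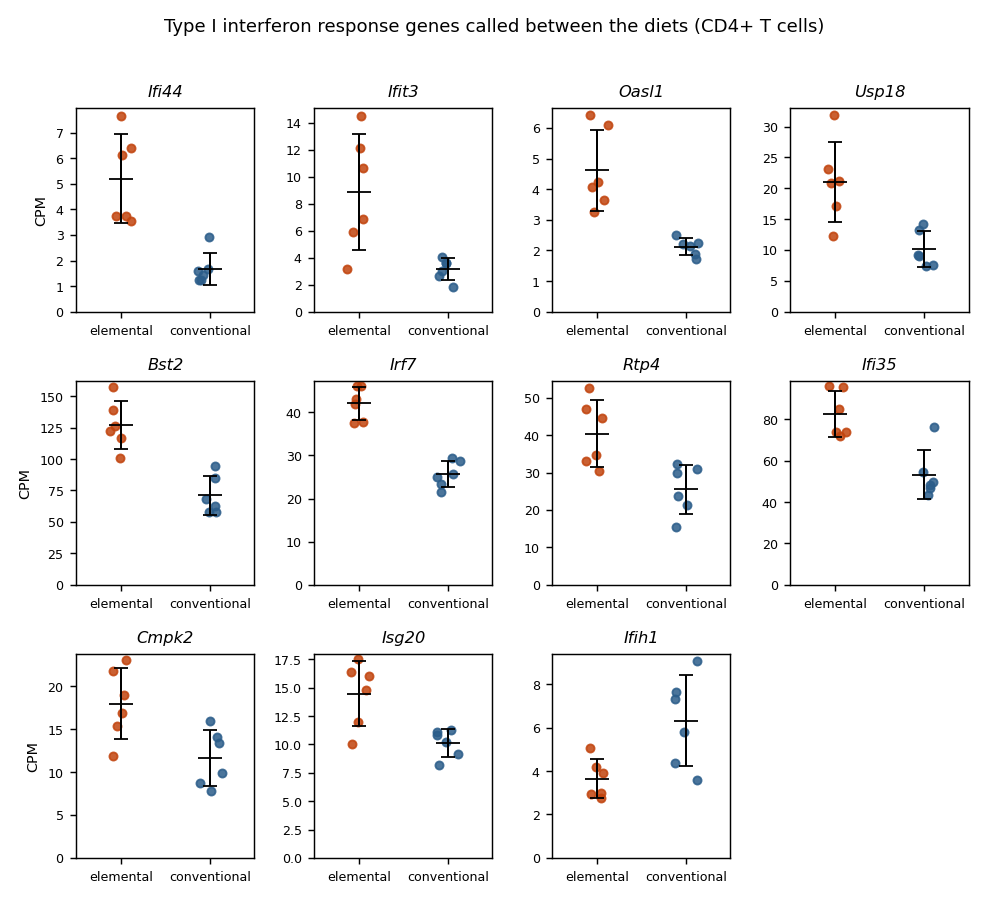
CPM of the 11 called interferon response genes in each elemental and conventional CD4+ library (points, n = 6 each, linear axes from 0), with the mean and SD in black. Genes run from the largest to the most negative log2 fold change. In Irf7, Oasl1, Bst2 and Ifi44 no elemental point falls among the conventional points, and Ifih1 is the gene with lower elemental values.

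The transcription factors were Irf7, Irf9 and Stat2. Irf7 (ENSMUSG00000025498, chr7:141262706-141266481, minus strand, GRCm38) encodes the factor that amplifies interferon alpha production and is itself interferon-induced. It measured 37.4, 42.5 and 46.1 CPM (lowest, median and highest) in elemental libraries, against 21.5, 25.4 and 29.3 CPM in conventional ones. The groups did not overlap. The log2 fold change was 0.72 ± 0.10 (SE; adjusted p = 0.000377, edgeR's quasi-likelihood test), higher in 6 of 6 elemental libraries than the conventional mean, and it ran from 0.67 to 0.76 when each library was left out. Irf7 overlaps Phrf1 on the opposite strand, and the labels do not say that counting used strand, so reads of the shared stretch cannot be told apart.

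Irf9 and Stat2 encode parts of ISGF3, and neither passed the test. Irf9 (ENSMUSG00000002325, chr14:55603571-55610030, plus strand), which overlaps Rnf31, measured 72.7, 93.0 and 103 CPM in elemental and 67.6, 81.1 and 91.2 CPM in conventional libraries. Its log2 fold change was 0.19 ± 0.10 (adjusted p = 0.188, edgeR). Stat2 (ENSMUSG00000040033, chr10:128270559-128292849, plus strand) measured 4.24, 6.84 and 10.7 CPM in elemental and 4.32, 7.97 and 11.6 CPM in conventional libraries, a log2 fold change of -0.19 ± 0.25 (adjusted p = 0.613, edgeR). For both, the diets overlapped.

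The sensors of foreign nucleic acid did not move as a block. Ifih1 (ENSMUSG00000026896, chr2:62595798-62646255, minus strand) encodes MDA5, a sensor of long double-stranded RNA, and was the 1 member that fell. It measured 2.74, 3.45 and 5.05 CPM in elemental libraries, against 3.59, 6.58 and 9.09 CPM in conventional ones. All 6 elemental values were under the conventional mean, yet the groups overlapped. Its log2 fold change was -0.80 ± 0.25 (adjusted p = 0.0424, edgeR), and the call was lost in 9 of 12 fits that left a library out. Those were the fits without conventional replicates 1, 2, 4 or 5 and without elemental replicates 2, 3, 4, 5 or 6, with the adjusted p at most 0.106.

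Ddx58 (ENSMUSG00000040296, chr4:40203773-40239828, minus strand), which encodes RIG-I, the sensor of short double-stranded RNA with a 5′ phosphate, measured 10.9, 15.7 and 20.2 CPM in elemental and 6.87, 15.6 and 26.9 CPM in conventional libraries. Its log2 fold change was -0.11 ± 0.26 (adjusted p = 0.783, edgeR). Dhx58 (ENSMUSG00000017830, chr11:100694884-100704271, minus strand) encodes LGP2, which modulates both sensors, and measured 8.97, 12.2 and 13.9 CPM in elemental and 5.74, 9.98 and 12.3 CPM in conventional libraries (0.30 ± 0.18, adjusted p = 0.244, edgeR). Zbp1 (ENSMUSG00000027514, chr2:173206612-173218923, minus strand), a sensor of Z-form nucleic acid that can trigger cell death, measured 24.9, 37.2 and 43.7 CPM in elemental and 27.7, 31.5 and 34.0 CPM in conventional libraries (0.20 ± 0.12, adjusted p = 0.255, edgeR). In each of the 3 genes the diets overlapped.

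Usp18 and Isg15 belong to the ISG15 system, in which ISG15 is attached to proteins and USP18 removes it and restrains the receptor. Usp18 rose, with 12.3, 21.0 and 31.8 CPM in elemental libraries, against 7.40, 9.11 and 14.2 CPM in conventional ones. Elemental replicate 5 alone fell within the conventional range. The log2 fold change of Usp18 was 1.07 ± 0.22 (adjusted p = 0.00501, edgeR). Isg15 measured 32.6, 39.4 and 58.0 CPM in elemental and 21.6, 30.0 and 48.4 CPM in conventional libraries. It was above the conventional mean in 6 of 6 elemental libraries but did not pass (0.40 ± 0.18, adjusted p = 0.139, edgeR).

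The IFIT proteins bind viral RNA and block its translation. Ifit3 rose to 3.13, 8.74 and 14.5 CPM in elemental libraries, against 1.85, 3.32 and 4.08 CPM in conventional ones, a log2 fold change of 1.5 ± 0.32 (adjusted p = 0.00635, edgeR). Only elemental replicate 5 was within the conventional range. Over the 26 libraries 49.6% of its exon reads were unique, the rest matching other places such as its near-identical copy Ifit3b, so its level is uncertain. With unique reads alone the change was 1.42 ± 0.36 (adjusted p = 0.0143, edgeR). Ifit1 (0.64 ± 0.33, adjusted p = 0.184, edgeR) and Ifit2 (-0.13 ± 0.26, adjusted p = 0.759, edgeR) were not called.

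The OAS proteins make the second messenger that activates RNase L, and the OAS-like proteins are their relatives. Oasl1 (ENSMUSG00000041827, chr5:114923240-114937915, plus strand), known in mice to repress translation of Irf7 mRNA, rose. It measured 3.26, 4.16 and 6.43 CPM in elemental libraries, against 1.73, 2.19 and 2.49 CPM in conventional ones. There was no overlap, and its log2 fold change was 1.12 ± 0.24 (adjusted p = 0.00604, edgeR). Oas1a, Oas3 and Oasl2 had log2 fold changes of 0.44 ± 0.17, 0.42 ± 0.26 and 0.62 ± 0.30, none of them called. Oas1a shared reads with other places, 52.0% of its exon reads being unique. Oas2 was too low to test, with at most 0.306 CPM in elemental and 0.592 CPM in conventional libraries.

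Among the genes that act on viruses or their products, 3 of the 5 tested rose. Bst2 (ENSMUSG00000046718, chr8:71534255-71537456, minus strand) encodes tetherin, which holds budding virus on the cell surface and is also high on plasmacytoid dendritic cells. It measured 101, 124 and 157 CPM in elemental libraries, against 57.7, 65.5 and 94.4 CPM in conventional ones. The groups did not overlap, and the log2 fold change of Bst2 was 0.84 ± 0.14 (adjusted p = 0.00101, edgeR). Cmpk2, a mitochondrial nucleotide kinase, measured 11.9, 17.9 and 23.0 CPM in elemental and 7.82, 11.7 and 16.0 CPM in conventional libraries (0.63 ± 0.20, adjusted p = 0.0426, edgeR). Isg20, an RNA exonuclease, measured 10.1, 15.4 and 17.5 CPM in elemental and 8.22, 10.5 and 11.2 CPM in conventional libraries (0.52 ± 0.16, adjusted p = 0.0335, edgeR).

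Both of these calls were near the threshold. The Cmpk2 call was lost without conventional replicates 2, 4 or 5 or without elemental replicates 1, 3, 4 or 6 (adjusted p at most 0.0991). The Isg20 call was lost without conventional replicates 2, 4 or 5 or without elemental replicates 1, 4 or 6. Rsad2, which encodes viperin, was not called, at 0.54 ± 0.30. Adar, the RNA editor that keeps self RNA from the sensors, had lower values in 5 of 6 elemental libraries than the conventional mean and missed the threshold (-0.39 ± 0.14, adjusted p = 0.0658, edgeR). Of its exon reads 55.3% were unique, and its gene overlaps Chrnb2. Mx1, of which C57Bl/6 mice carry a defective allele, was too low to test, with at most 0.921 CPM in elemental and 1.30 CPM in conventional libraries.

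The neighbours Parp9, Dtx3l and Parp14 on chromosome 16, which encode ADP-ribosyltransferases and a ubiquitin ligase partner, all had negative log2 fold changes, of -0.20 ± 0.14, -0.40 ± 0.20 and -0.43 ± 0.17. None was called, and Parp9 and Dtx3l overlap. Without conventional replicate 6, 13 members rose and 5 fell, with 3865 genes called in all. The genes added above were Isg15 (0.55 ± 0.15), Oas1a (0.49 ± 0.17) and Ifit1 (0.97 ± 0.29). Those added below were Adar (-0.48 ± 0.12), Parp14 (-0.53 ± 0.16), Dtx3l (-0.52 ± 0.17) and Parp9 (-0.30 ± 0.11). Without conventional replicate 1, Ddx58, Ifit2 and Trim30a, all uncalled, turned from negative to 0.07, 0.09 and 0.01.

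The remaining members have other or less defined roles. Ifi44 (ENSMUSG00000028037, chr3:151730922-151749960, minus strand) had the largest log2 fold change of the 30, 1.64 ± 0.30 (adjusted p = 0.00212, edgeR). It measured 3.56, 4.93 and 7.64 CPM in elemental libraries, against 1.23, 1.51 and 2.92 CPM in conventional ones, without overlap. Ifi35 rose by 0.64 ± 0.13 on the log2 scale (adjusted p = 0.00488, edgeR), with 71.8 to 95.9 CPM in elemental and 43.3 to 76.4 CPM in conventional libraries, and conventional replicate 6 gave the overlap. Rtp4, a receptor chaperone whose gene overlaps Masp1, rose by 0.66 ± 0.18 (adjusted p = 0.0219, edgeR), with 30.3 to 52.7 CPM in elemental and 15.3 to 32.2 CPM in conventional libraries. Its call was lost without conventional replicate 4 (adjusted p = 0.0554, edgeR) and without elemental replicate 4 or 6. Ifi27l2a, Trim30a and Xaf1 were not called, at 0.12 ± 0.16 (-0.08 with the length trend removed), -0.11 ± 0.12 and 0.26 ± 0.13.

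Per length of exon, Ifi27l2a was the most abundant member, at a mean of 566 CPM per kb in elemental and 521 CPM per kb in conventional libraries. Bst2 followed, at 160 CPM per kb in elemental and 89.7 CPM per kb in conventional libraries, and then Isg15, at 55.4 CPM per kb in elemental and 42.1 CPM per kb in conventional libraries. Oas2 was lowest, at 0.0348 CPM per kb in elemental and 0.0452 CPM per kb in conventional libraries.

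Of the 10 genes that rose, 9 had their 2 highest elemental values in replicates 4 and 6, and 7 had their lowest in replicate 5. How many of all genes shared this order is not given here, so it cannot be read as particular to the members. Bst2 was the exception at the top, with its highest value, 157 CPM, in elemental replicate 3. That library also had the highest level of Siglech, the surface receptor that marks plasmacytoid dendritic cells (38.6 CPM). Elemental replicate 4, with the next highest Bst2 (139 CPM), had only 14.5 CPM of Siglech, and a link between these genes was not tested. Calls of 7 of the 10, Ifi44, Ifit3, Oasl1, Usp18, Bst2, Irf7 and Ifi35, held in each of the 12 fits that left out a library.

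The diet difference went with the length of the transcript. The 10 genes that rose had a median of 2109.5 exon bases and at most 3200. The 8 negative genes that were not called had at least 3771, and Ifih1, which fell, had 5470. The 11 positive genes that were not called ran from 463 to 4900. The cause of this pattern was not tested. Over the 30 tested members the log2 fold change correlated with log2 exon length at r = -0.48 and rho = -0.63, and over all 11938 genes at r = -0.27 and rho = -0.36. These are descriptions across genes that share the same 12 libraries. By exon length, the members had median log2 fold changes of 0.40 up to 1000 bases (3 of 3 positive), 0.58 from 1000 to 2000 (4 of 4) and 0.66 from 2000 to 3000 (9 of 9). Over all genes the medians of these classes were 0.21, 0.15 and 0.05. Members from 3000 to 4000 bases had a median of 0.04 (3 of 6 positive), those from 4000 to 6000 one of -0.20 (2 of 7), and the 1 member over 6000, Parp14, was at -0.43. Over all genes those classes had medians of -0.05, -0.15 and -0.30. Classes of members hold 1 to 9 genes each.

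**Figure D2:**
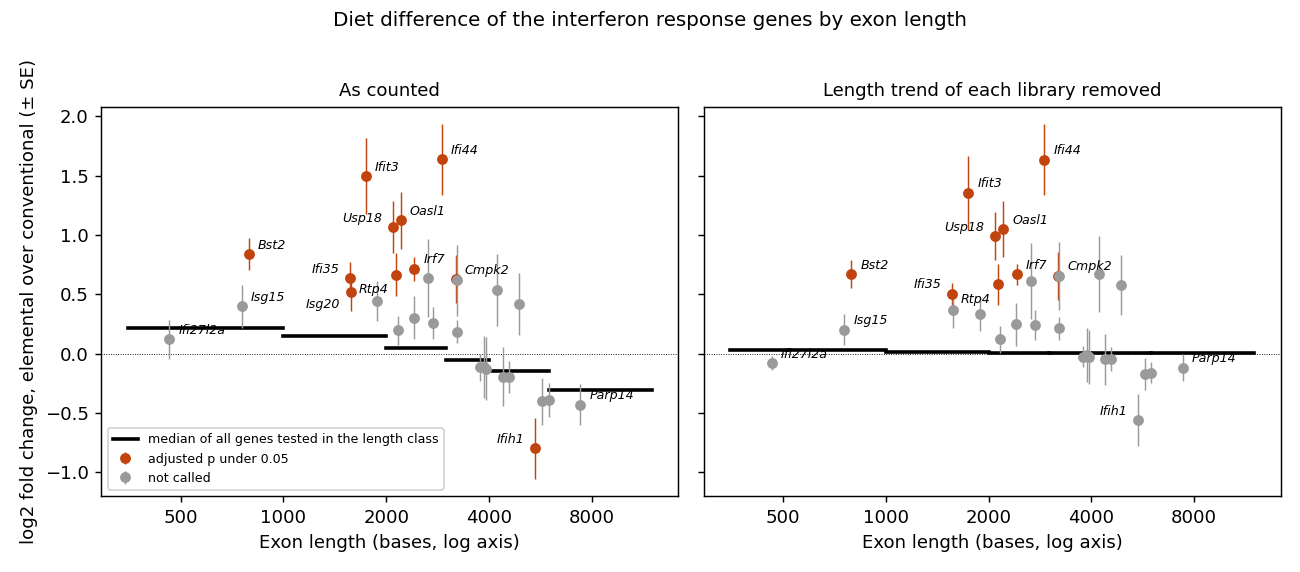
Log2 fold change (elemental over conventional, ± SE) of the 30 tested interferon response genes against exon length on a log axis, as counted (left) and after each library's length trend was removed (right). Orange points passed an adjusted p of 0.05, and black bars are medians of all genes tested in each length class. The bars slope down from 0.21 to -0.30 on the left and are nearly flat on the right, where Ifi44, Ifit3, Oasl1 and Usp18 stay high and Ifih1 and Isg20 are no longer called.

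A fit with each library's length trend removed was added after the data were seen. It called 9 of the 10 members as higher and 0 as lower. Isg20 lost its call (0.37 ± 0.15, adjusted p = 0.104, edgeR), as did Ifih1 (-0.56 ± 0.22, adjusted p = 0.0849, edgeR). Irf7 was at 0.67 ± 0.09, Bst2 at 0.67 ± 0.11 and Ifi44 at 1.63 ± 0.30 in that fit, all still called. Adar, Dtx3l and Parp14 moved to -0.16 ± 0.09, -0.17 ± 0.13 and -0.12 ± 0.11. The log2 fold change of the 30 tested members still correlated with exon length in that fit, at r = -0.29 and rho = -0.47. Over all 11938 genes the values were r = -0.06 and rho = -0.03. The length pattern differed among libraries of a diet as well. The median deviation of long genes ran from -0.30 to 0.01 in elemental libraries and from -0.30 in conventional replicate 6 to 0.51 in conventional replicate 1. In elemental replicates 4, 6 and 5 it was -0.30, -0.26 and -0.10.

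**Figure D3:**
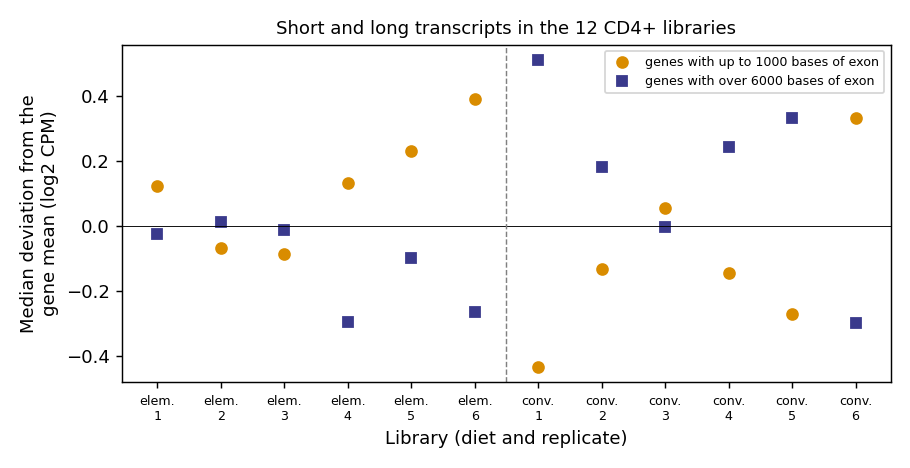
Median deviation of short genes (up to 1000 exon bases, circles) and long genes (over 6000, squares) from their mean over the 12 CD4+ libraries, in log2 CPM, for elemental (left of the dashed line) and conventional libraries. Conventional replicate 1 has the highest long-gene value, 0.51, and conventional replicate 6, at -0.30, lies with elemental replicate 4.

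Markers of other cells moved with diet, and their part in the member values was not tested. Of 11 plasmacytoid dendritic cell markers, 4 rose and 0 fell, with 8 log2 fold changes positive, 3 negative and a median of 0.30. Among those that rose was Siglech, with 12.95 to 38.6 CPM in elemental and 4.11 to 10.2 CPM in conventional libraries. The 11 markers summed to 237 to 484 CPM in elemental and 219 to 306 CPM in conventional libraries. All 13 myeloid markers in the tables rose, and summed to 413 to 1219 CPM in elemental and 142 to 262 CPM in conventional libraries. Of 12 epithelial markers 6 rose, and the sum was 957 to 2083 CPM in elemental and 79.5 to 1152 CPM in conventional libraries. Without conventional replicate 6 the highest conventional epithelial sum was 630 CPM. Germinal centre B cell markers fell, 6 of 6, with sums of 41.9 to 55.8 CPM in elemental and 99.7 to 180.0 CPM in conventional libraries. B cell markers summed to 199 to 457 CPM in elemental and 346 to 665 CPM in conventional libraries. Of 7 plasma cell markers 3 fell, with sums of 398 to 871 CPM in elemental and 925 to 1967 CPM in conventional libraries. None of the markers in these 6 lists was at 0 in every CD4+ library. Of 6 tested markers of NK, innate lymphoid and gamma-delta T cells 2 rose and 2 fell, of 3 stromal ones 1 fell, and of 11 T cell core genes 4 fell.

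The ligand genes of the pathway were nearly without reads. Of 20 interferon genes listed, 18 had 0 exon reads in every CD4+ library, where 3 reads in a library would be 0.135 to 0.187 CPM in elemental and 0.111 to 0.185 CPM in conventional libraries. This limit covers counting error only. Ifng, the T cell product interferon gamma, was the 1 ligand gene with enough reads. It fell to 1.39 to 2.29 CPM in elemental libraries, against 4.13 to 8.01 CPM in conventional ones, a log2 fold change of -1.63 ± 0.25 (adjusted p = 0.000635, edgeR).

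Among the 5 receptor genes tested, Il10rb, Ifngr1 and Ifngr2 rose. Il10rb, a chain shared by the interleukin 10 and lambda interferon receptors, measured 59.6 to 68.7 CPM in elemental and 42.0 to 49.3 CPM in conventional libraries. Ifngr1, the ligand-binding chain for interferon gamma, measured 87.5 to 148 CPM in elemental and 74.8 to 83.7 CPM in conventional libraries. Neither overlapped between the diets. Ifnar1 and Ifnar2, the chains of the type I receptor itself, were not called, with log2 fold changes of -0.27 ± 0.17 and -0.05 ± 0.09.

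Of 13 signalling genes, 3 rose (Socs1 and Socs3, feedback inhibitors of JAK kinases, and Irf8) and Jak2 fell. Jak1 (-0.91 ± 0.32, adjusted p = 0.069, edgeR) and Tyk2 (-0.20 ± 0.13, adjusted p = 0.271, edgeR) were not called. Of 12 genes that lead to interferon production, 1 rose. That was Tlr7, the endosomal receptor for single-stranded RNA, with 5.48 to 11.1 CPM in elemental and 2.96 to 5.17 CPM in conventional libraries, and it is also on the plasmacytoid dendritic cell list.

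In CD44+ against CD44- T cells, no interferon response gene was called with edgeR's quasi-likelihood test. Of the 32, 30 were tested (Mx1 and Ifi44 were too low), 0 passed an adjusted p under 0.05, and 5 had an unadjusted p under 0.05. DESeq2 called 1, Ifit2, and limma-voom called 0. Across all 8343 genes tested 0.767% were called, 0.3% as higher and 0.467% as lower, and 13.4% had an unadjusted p under 0.05. The median log2 fold change of the 30 was -0.15, against 0.03 over all genes, with 13 positive and 17 negative. The groups overlapped for each of the 30, and over all genes only 0.396% (higher) and 0.36% (lower) had groups without overlap. Leaving out a library turned the sign of 13 of the 30 in at least 1 fit, among them Irf7, Ifih1, Dhx58 and Stat2. The share of all genes whose sign turned is not given here, so this count cannot be read as particular to the members. The median SE over all genes tested was 0.77.

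**Figure D4:**
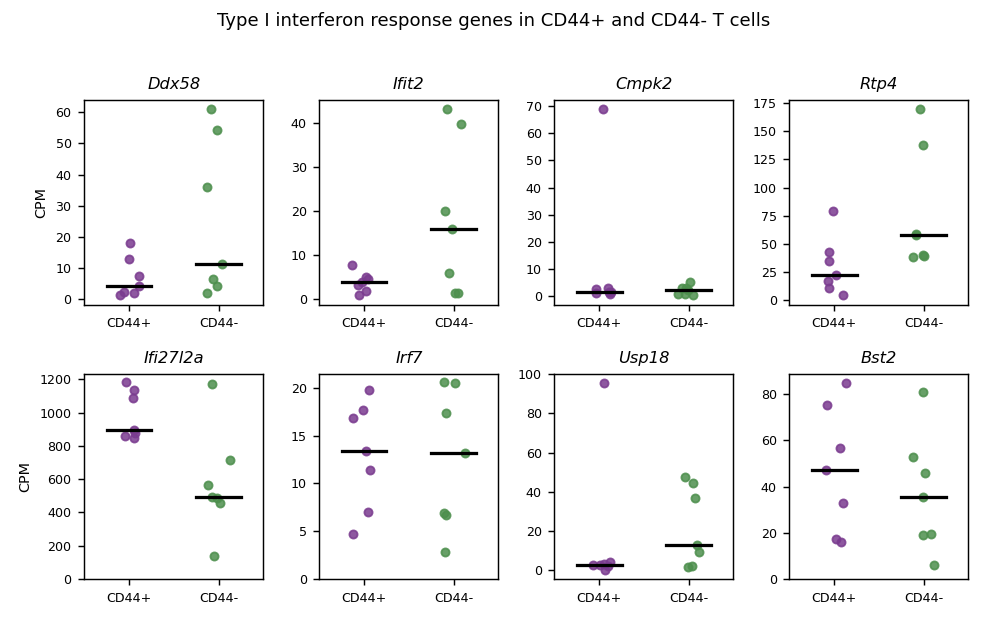
CPM of 8 interferon response genes in each CD44+ and CD44- library (points, n = 7 each), with the median as a black bar. The first 5 genes had an unadjusted p under 0.05, and Irf7, Usp18 and Bst2 had risen on the elemental diet. Single libraries reach far above the rest for Cmpk2 (69.0 CPM) and Usp18 (95.4 CPM) in CD44+ cells.

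Irf7 measured 4.75, 13.4 and 19.8 CPM (lowest, median and highest) in CD44+ and 2.84, 13.2 and 20.6 CPM in CD44- libraries. Its log2 fold change was 0.05 ± 0.66 (adjusted p = 0.985, edgeR). Irf9 measured 3.49, 49.8 and 207 CPM in CD44+ and 4.59, 88.5 and 221 CPM in CD44- libraries (-0.70 ± 0.75, adjusted p = 0.761, edgeR). Stat2 measured 1.92, 3.70 and 48.2 CPM in CD44+ and 0.905, 3.62 and 24.0 CPM in CD44- libraries (0.74 ± 0.90, adjusted p = 0.795, edgeR), and -0.47 without CD44+ replicate 7, which held the 48.2 CPM. The groups overlapped in all 3 genes.

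Among the sensors, Ddx58 measured 1.15, 4.19 and 18.1 CPM in CD44+ and 1.98, 11.3 and 61.1 CPM in CD44- libraries, with a log2 fold change of -1.86 ± 0.89 (adjusted p = 0.37, edgeR). With total gene reads it was -0.49 for Ddx58. Ifih1 measured 2.16, 6.71 and 57.0 CPM in CD44+ and 0.557, 4.24 and 15.0 CPM in CD44- libraries (1.09 ± 0.88, adjusted p = 0.664, edgeR). It was -0.02 without CD44+ replicate 5, which held the 57.0 CPM of Ifih1. Dhx58 (-0.52 ± 0.70, adjusted p = 0.823, edgeR) and Zbp1 (0.56 ± 0.49, adjusted p = 0.695, edgeR) overlapped as well. Zbp1 was among the more even genes, at 22.9, 76.1 and 103 CPM in CD44+ and 12.7, 59.3 and 75.3 CPM in CD44- libraries.

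The Ifit genes had negative values in all 3 members. Ifit2 measured 0.864, 3.84 and 7.79 CPM in CD44+ and 1.32, 16.0 and 43.1 CPM in CD44- libraries (-2.23 ± 0.86, adjusted p = 0.251, edgeR). Rtp4 measured 4.30, 22.0 and 79.3 CPM in CD44+ and 38.2, 57.5 and 170 CPM in CD44- libraries, -1.35 ± 0.63 on the log2 scale (adjusted p = 0.356, edgeR). Ifi27l2a was the most even member of CD44+ cells. It measured 844, 897 and 1181 CPM in CD44+ and 140, 493.4 and 1171 CPM in CD44- libraries, with 7 of 7 CD44+ values above the CD44- mean (0.78 ± 0.32, adjusted p = 0.284, edgeR). Genes with up to 1000 exon bases had a median log2 fold change of 0.46 in this pair, and with the length trend removed Ifi27l2a, with 463 exon bases, was at 0.28 ± 0.28 (adjusted p = 0.738, edgeR). Cmpk2 had a log2 fold change of 2.40 ± 1.08 (adjusted p = 0.344, edgeR) that came from CD44+ replicate 5 at 69.0 CPM, and it was -0.29 without that library.

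Libraries of the CD44 pair differed widely within a group. The values for the CD4+ pair stand beside them as a description, since kit, RNA amount and cells differ together. The SD was a median of 76.7% of the mean over the members in CD44+ and 80.8% in CD44- libraries, against 22.6% in elemental and 25.6% in conventional CD4+ libraries, each over 30 tested members. The highest value of a member exceeded the lowest by more than 3 log2 units in 15 members in CD44+ and 24 in CD44- libraries, and in 0 in either CD4+ group. The median SE of the members' log2 fold change was 0.75 for the CD44 pair and 0.18 for the diets, against 0.77 and 0.18 over all genes tested. In log2 CPM the median SD of the members was 0.99 in CD44+ and 1.33 in CD44- libraries, against 1.36 and 1.41 over all genes. It was 0.33 in elemental and 0.38 in conventional libraries, against 0.29 and 0.31 over all genes. The wide spread of the CD44 pair was thus not particular to the members.

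**Figure D5:**
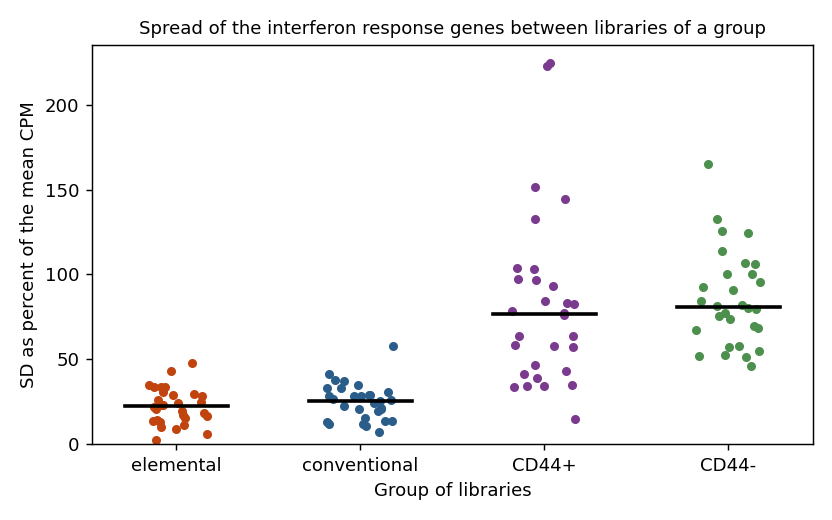
SD as a percent of the mean CPM for each tested interferon response gene (points, 30 per group), with the median as a black bar, in elemental (n = 6), conventional (n = 6), CD44+ (n = 7) and CD44- (n = 7) libraries. Medians are 22.6% in elemental, 25.6% in conventional, 76.7% in CD44+ and 80.8% in CD44- libraries.

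The sort marker itself overlapped, Cd44 measuring 89.2 to 362 CPM in CD44+ and 47.5 to 139 CPM in CD44- libraries (0.95 ± 0.40, adjusted p = 0.303, edgeR). Cd4 measured 12.5 to 69.6 CPM in CD44+ and 38.5 to 482 CPM in CD44- libraries. Markers of other cells moved with the sort, and their part in the member values was not tested. The 7 plasma cell markers summed to 3841 to 8087 CPM in CD44+ and 399 to 3136 CPM in CD44- libraries, and 2 of the 5 tested were called higher. The 11 plasmacytoid dendritic cell markers summed to 797 to 1552 CPM in CD44+ and 87.2 to 342 CPM in CD44- libraries, most of it Ly6d, at 581 to 1361 CPM in CD44+ and 29.1 to 314 CPM in CD44- libraries. Their defining gene Siglech ran from 0.237 to 102 CPM in CD44+ and from 0 to 11.6 CPM in CD44- libraries. Of 9 tested plasmacytoid dendritic cell markers 2 were called higher. Among 13 myeloid, 8 B cell, 5 germinal centre B cell, 2 epithelial, 3 stromal and 11 T cell core genes tested, 0 were called. Of 5 tested NK, innate lymphoid and gamma-delta T cell markers 1 was called higher. Introns took 20.6% to 29.0% of gene reads in CD44+ and 9.39% to 27.0% in CD44- libraries.

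Of the pathway genes beyond the members, 1 was called between CD44+ and CD44- cells. Ifit1bl1, a relative of Ifit1, fell to 0.144 to 9.50 CPM in CD44+ libraries, against 0.642 to 114 CPM in CD44- ones (-4.83 ± 1.04, adjusted p = 0.0322, edgeR), although the groups overlapped. Ifnar1, Ifnar2, Jak1 and Tyk2 had log2 fold changes of -0.59 ± 0.61, -0.22 ± 0.70, -0.53 ± 0.40 and -0.08 ± 0.74, none of them called. Ifng did not pass the filter on low counts, with 0.12 to 1.58 CPM in CD44+ and 0 to 49.3 CPM in CD44- libraries. Its highest values were in CD44- replicates 5 and 6, at 18.4 and 49.3 CPM. Of the 20 interferon genes, 16 had 0 reads in these libraries.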

How the data were processed

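The authors deposited, for each of the 26 libraries, whole-number counts of reads per gene in exons and introns, per the file headers. Per the submitters' processing notes the genome was GRCm38. The aligner, the counter and any strand setting were not given in the sources used here. Counts of total exon reads were tested with edgeR 4.0.16 (R 4.3.3), by the quasi-likelihood test with robust spread, two-sided. Genes were kept by filterByExpr and scaled by TMM, only the 2 groups compared entered a fit, and p-values were Benjamini-Hochberg adjusted over all genes tested. The SE is the size of the log2 fold change over the square root of F. CPM were taken on the TMM-scaled total of the genes kept, and log2 CPM used a prior count of 2. Alternatives used limma 3.58.1 and DESeq2 1.42.0, and fits without each library. In the fit with the length trend removed, a lowess curve of each library's log2 CPM (less the gene mean) along log2 exon length was taken off as an offset. Python 3.11.15, pandas 2.3.3, numpy 2.4.6 and matplotlib 3.10.9 made tables and figures. The scripts were tested on simulated data. No pair of libraries within a group was a duplicate, as replicates differed by a chi-square of at least 11.9 per degree of freedom. Pairs across groups were not compared.

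The members, pathway lists and marker lists were chosen with earlier results of these data known. Full statistics were given for members called without overlap, for Irf7, Irf9 and Stat2 and for the sensors. Pathway genes are counts per list, with Ifnar1, Ifnar2, Jak1 and Tyk2 and called genes without overlap (mean of at least 2 log2 CPM) named; 1 further gene of the rule is not reported here. Other members and genes named were chosen after their values were seen. Promoter windows are from RefSeq, GRCm38.p6.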

Additional observations from a re-analysis of the deposited data

Results flagged for a closer look

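Within each group, the library farthest from the rest was compared with Dixon's critical value over 120 groups of member values, and 5 passed, where chance gives about 1 in 20 groups. In CD44+ libraries these were Usp18 in replicate 4 (95.4 CPM, highest), Cmpk2 in replicate 5 (69.0 CPM, highest) and Zbp1 in replicate 7 (22.9 CPM, lowest). In elemental libraries it was Oas3 in replicate 5 (6.39 CPM, lowest). In conventional libraries it was Ifi44 in replicate 6 (2.92 CPM, highest), and Ifi44 was called with and without that library.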

How the results depend on the processing

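Between the diets 2081 genes were called, 2 when the 4 groups shared a spread (which takes in the wider CD44 libraries), 347 against a minimum fold of 1.5 and 1299 to 3865 without each library. The count fell to 1299 without conventional replicate 4 and 1316 without elemental replicate 4, and was 3865 without conventional replicate 6. Members that rose, 10, were 0 with the shared spread, 1 at the minimum fold and 7 to 13 without each library. Isg20 lost its call with no filter and with the length trend removed. With total gene reads Oasl2 gained one (0.91 ± 0.28, adjusted p = 0.0346, edgeR). Members that fell, 1, were 2 with DESeq2, 0 with no filter, total gene reads, the shared spread, the minimum fold and the length trend removed, and 0 to 5 without each library. Between CD44+ and CD44- cells 64 genes were called, 815 with DESeq2, 37 with the replicate block, 101 with total gene reads, 1748 with the shared spread, 30 at the minimum fold and 36 to 87 without each library. The members that fell were 1 with DESeq2 and 1 with the shared spread, both Ifit2. Cmpk2 was 2.40 there and -0.25 with DESeq2, and -0.29 to 2.79 without each library. The cause of these changes was not tested where no value above shows it.

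Deviations of same-numbered libraries correlated at -0.14 to 0.27 between the diets and at -0.04 to 0.12 in the CD44 pair. Of these, 1 of 6 and 1 of 7 correlated best with its own number. The labels do not say what a replicate number marks, and these values cannot decide whether same-numbered samples were paired. With the replicate block 2033 genes and 10 members higher and 1 lower were called between the diets, Isg15 gained and Isg20 lost. Mx1 in both comparisons, Oas2 between the diets and Ifi44 in the CD44 pair did not pass the filter on low counts.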

Other observations

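Beyond the members, 43 further interferon-inducible genes were tested between the diets, of which 6 rose and 0 fell, against 9.68% and 7.75% of all genes. Their median log2 fold change was 0.08, against -0.01 over all genes, with 28 positive and 15 negative. An unadjusted p under 0.05 (edgeR) was found for 9 of the 43 and for 33.8% of all genes. Ube2l6, the enzyme that passes ISG15 to its ligase, measured 21.3 to 34.1 CPM in elemental and 9.55 to 18.5 CPM in conventional libraries (0.87 ± 0.16, adjusted p = 0.00233, edgeR). Lgals9, a galectin that acts on T cell receptors, measured 118 to 144 CPM in elemental and 92.5 to 109 CPM in conventional libraries (0.41 ± 0.07). Lgals3bp, a secreted glycoprotein that binds galectins, measured 95.7 to 127 CPM in elemental and 72.3 to 93.6 CPM in conventional libraries (0.35 ± 0.09). Ifi27l2b, a relative of Ifi27l2a, measured 13.9 to 23.6 CPM in elemental and 0.254 to 8.77 CPM in conventional libraries (2.18 ± 0.51), while Ifi27l2a, at 209 to 338 CPM in elemental and 173 to 368 CPM in conventional libraries, was not called. Oas1g, whose reads can be shared with Oas1a, measured 2.79 to 8.32 CPM in elemental and 0.0618 to 2.01 CPM in conventional libraries. These 5 did not overlap between the diets. Parp12 rose with overlap.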
